A study of Mus musculus with 6 samples.

Results

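The dopamine and adrenergic receptor genes were followed in hippocampal RNA-Seq of Phf21b mutant and wild-type mice. They were chosen by gene symbol (Drd1, Drd2, Drd5, Adra1a, Adra1b, Adra1d, Adra2a, Adra2b, Adra2c and Adrb1), and all 10 were among the 14477 genes listed in the deposited matrix. Drd3, Drd4 and Adrb3 of the same families had no entry. Hippocampal libraries came from 3 untreated mice of each genotype, 1 library per mouse. Mutant (Phf21bΔ4/Δ4) mice are numbered as replicates 2, 3 and 6, wild-type (Phf21b+/+) mice as replicates 5, 7 and 8, and values for single mice are given in that order throughout. The Phf21bΔ4/Δ4 line carries a whole-body CRISPR/Cas9 deletion made with a pair of guides in exon 4 of Phf21b, a gene for a chromatin reader, so every cell type of the tissue carries the allele. Per the study's methods the strain is C57BL/6J and experiments used male and female littermates of 2 to 6 months. The sex, exact age, dissection and library batch of each of these 6 mice are not given in the sources used here.

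Catecholamine receptors are 7-helix membrane proteins that act through G proteins. The D1-type dopamine receptors (Drd1, Drd5) and the beta-adrenergic receptors couple to Gs and raise cyclic AMP, the D2-type dopamine receptors and the alpha-2 adrenergic receptors couple to Gi and lower it, and the alpha-1 adrenergic receptors couple to Gq and phospholipase C. In the hippocampus, noradrenaline from the locus coeruleus and dopamine from the midbrain and the locus coeruleus act on these receptors and modulate synaptic plasticity and memory.

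Adra2b, the gene for the alpha-2B receptor, was lower in all 3 Phf21bΔ4/Δ4 mice and was the only receptor of the 10 called in the comparison of genotypes. Drd2 was also lower in all 3 Phf21bΔ4/Δ4 mice and Adra2c was higher in all 3, with FDRs above the threshold. Adra1a and Adra2a were higher in 2 of the 3 mutants, replicates 2 and 3, and not in replicate 6. For Drd5 and Adra1b the estimated difference was close to 0 with wide intervals. A gene was called when its false discovery rate (FDR, limma on log2 CPM, adjusted over all genes, where CPM is reads per 1000000 reads of effective library size) was under 0.1 and its fold change above 1.3. This left 1 of the 10 receptors called, where 1.22% of all genes were called (96 lower and 80 higher). The study's own list of differentially expressed genes, from edgeR on counts at the same thresholds, holds none of the 10 receptors, Adra2b included.

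**Figure D1:**
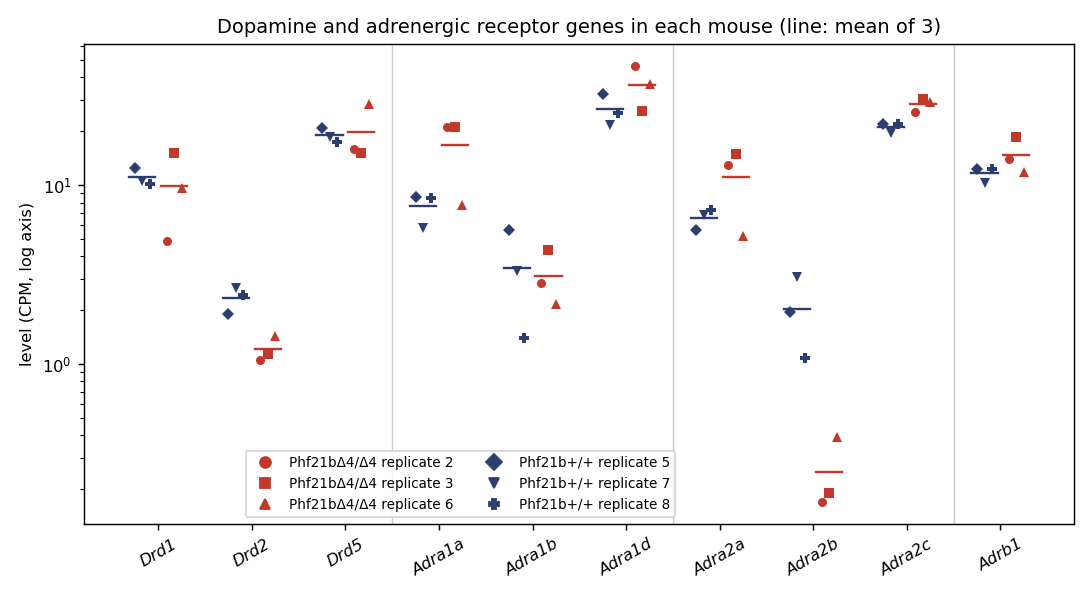
Level of the 10 receptor genes in CPM (log axis) in each of the 6 mice, red for Phf21bΔ4/Δ4 and blue for Phf21b+/+, with a line at the mean of 3 mice. The 3 Phf21bΔ4/Δ4 mice lie below all Phf21b+/+ mice for Drd2 and Adra2b and above them for Adra2c.

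The depth of the 6 libraries was alike, with 20495605 to 24881257 reads on the listed genes, so that 3 reads corresponded to 0.127 to 0.143 CPM. Phf21b itself, the targeted gene, was 3.20 ± 0.919 CPM in Phf21bΔ4/Δ4 and 6.07 ± 0.724 CPM in Phf21b+/+ mice (SD, n = 3), without overlap, and did not pass the threshold (FDR = 0.14). The deletion covers part of 1 exon and reads were counted over the whole gene, so its level does not measure the deletion directly. Across all genes, Phf21bΔ4/Δ4 replicate 6 correlated with Phf21b+/+ replicate 5 (r = 0.980) more than with mutant replicates 2 (0.975) and 3 (0.965), as a description across genes, which are not replicates. Summed choroid plexus markers reached 15574.4 CPM in Phf21b+/+ replicate 7 and 966 CPM in replicate 8, against 15.2 to 67.4 CPM in the other 4 mice.

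Sequence is shown for Adra2b and Drd2, because they are the receptors lower in every Phf21bΔ4/Δ4 mouse, as the 250 bases before the RefSeq start site (GRCm38.p6, + strand, 5′ to 3′). Capitals mark GC boxes (GGGCGG on either strand), the letters that general promoter factors of the Sp family bind. The windows lie at chr2:127362929-127363178 for Adra2b and chr9:49340153-49340402 for Drd2.
Adra2b: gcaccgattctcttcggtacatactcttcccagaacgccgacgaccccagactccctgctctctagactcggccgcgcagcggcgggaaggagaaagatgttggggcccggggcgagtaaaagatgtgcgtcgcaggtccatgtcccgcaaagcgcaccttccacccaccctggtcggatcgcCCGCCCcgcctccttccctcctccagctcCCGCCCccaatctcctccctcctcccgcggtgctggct
Drd2: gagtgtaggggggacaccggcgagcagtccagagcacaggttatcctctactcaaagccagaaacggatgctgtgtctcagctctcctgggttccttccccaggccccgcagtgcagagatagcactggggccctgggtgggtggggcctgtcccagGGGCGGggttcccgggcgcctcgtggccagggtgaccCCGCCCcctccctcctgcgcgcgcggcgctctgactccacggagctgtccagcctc
Each window held 2 GC boxes, a match found in 32.7% of 32851 RefSeq windows of this kind. Neither held the cyclic AMP response element TGACGTCA (1.55% of windows), its half-site TGACG (17.8%) or the letters TATAAA (12.4%), each searched on both strands. GC content was 66.0% for Adra2b and 68.8% for Drd2. The RefSeq table held a window for 8 of the 10 receptors. A match of letters is a description of the window and not a binding site.

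Among the D1-type receptors, Drd1, the main Gs-coupled dopamine receptor of the striatum and cortex, was 4.85, 15.2 and 9.66 CPM in Phf21bΔ4/Δ4 mice and 12.5, 10.6 and 10.2 CPM in Phf21b+/+ mice. The mutants spanned the whole wild-type range, with replicate 2 lowest and replicate 3 highest of the 6 mice. The log2 fold change (Phf21bΔ4/Δ4 minus Phf21b+/+, here and throughout) was -0.31 with a 95% interval of -1.24 to 0.61 (limma FDR = 0.63).

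Drd5, the other D1-type receptor, which is well known from hippocampal neurons, was 16.0, 15.1 and 28.4 CPM in Phf21bΔ4/Δ4 mice and 20.9, 18.6 and 17.5 CPM in Phf21b+/+ mice. Replicate 6 was above and replicates 2 and 3 were below every wild-type mouse, and the log2 fold change was 0.00 (95% interval -0.58 to 0.58). Without replicate 6 it was -0.29 (FDR = 0.14). The Drd5 gene overlaps Gm26560 in the annotation, and since the strand setting of the counting is not given, reads of the 2 genes may not be told apart.

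Drd2, the Gi-coupled dopamine receptor that also serves as an autoreceptor and that in the hippocampal formation is known from hilar mossy cells, was counted at 25, 24 and 33 reads in Phf21bΔ4/Δ4 mice and 40, 63 and 54 reads in Phf21b+/+ mice. In CPM these were 1.05, 1.14 and 1.44 against 1.90, 2.66 and 2.43, so the highest mutant stayed below the lowest wild-type mouse. Drd2 RNA in the tissue was thus lower in each mutant, with a log2 fold change of -0.94 (SE 0.26, 95% interval -1.55 to -0.33). It did not pass the threshold (limma FDR = 0.14, unadjusted p = 0.0088), and the exact permutation test over mice gave p = 0.10, the smallest that 3 against 3 mice allow. In bulk tissue, fewer cells of the type that carries the receptor and less RNA per cell cannot be told apart, for Drd2 as for the genes that follow. Without Phf21bΔ4/Δ4 replicate 6 the log2 fold change was -1.07 and Drd2 was called (FDR = 0.057), in a fit that called 19.5% of all genes. Leaving out any other mouse gave no call (FDR 0.15 to 0.36).

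Of the Gq-coupled alpha-1 receptors, Adra1a was 21.2, 21.1 and 7.79 CPM in Phf21bΔ4/Δ4 mice and 8.54, 5.78 and 8.49 CPM in Phf21b+/+ mice. Replicates 2 and 3 lay far above the wild-type mice, and replicate 6 lay among them. The log2 fold change was 1.02 with a 95% interval of 0.04 to 1.99 (unadjusted p = 0.043, limma FDR = 0.20). Without replicate 6 it was 1.5 (SE 0.20) and Adra1a was called (FDR = 0.017). Leaving out any other mouse gave no call (FDR 0.25 to 0.44). Adra1a thus depended on whether 1 of the 3 mutants was kept.

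Adra1d, the alpha-1D receptor and the highest of the receptors per kilobase, was 46.5, 25.9 and 36.8 CPM in Phf21bΔ4/Δ4 mice and 32.4, 21.7 and 25.4 CPM in Phf21b+/+ mice. The 2 highest values were from mutants, but mutant replicate 3 lay inside the wild-type range. Adra1d had a log2 fold change of 0.44 (95% interval -0.13 to 1.01, limma FDR = 0.30). Adra1d overlaps Gm14285 in the annotation, with the same limit on strand as for Drd5.

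Adra1b, the alpha-1B receptor, varied most among wild-type mice in relation to its level, at 5.65, 3.33 and 1.39 CPM in Phf21b+/+ mice. The Phf21bΔ4/Δ4 values of 2.83, 4.33 and 2.17 CPM all fell inside that range. The log2 fold change was 0.01, and its 95% interval of -1.25 to 1.27 leaves room for a change of more than 2-fold either way. Without any 1 mouse in turn it ran from -0.54 to 0.47.

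The Gi-coupled alpha-2 receptors differed in direction. Adra2b, which in rodent brain is best known from the thalamus, was counted at 4, 4 and 9 reads in Phf21bΔ4/Δ4 mice and 41, 73 and 24 reads in Phf21b+/+ mice. In CPM this was 0.169, 0.191 and 0.391 against 1.95, 3.08 and 1.08. All 3 mutants lay below the lowest wild-type mouse, replicate 8, and the wild-type mice themselves differed among each other. Over the 3 mice the mutants had 17 reads (95% Poisson interval 9.90 to 27.2, counting error only) and the wild-type mice 138 (116 to 163).

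The fitted log2 fold change of Adra2b was -2.98 (SE 0.55, 95% interval -4.29 to -1.66), or 7.87-fold lower in Phf21bΔ4/Δ4 mice, with a limma FDR of 0.097 (unadjusted p = 0.0012) and an exact permutation p of 0.10. The FDR lay just inside the threshold of 0.1, and the call was lost when any 1 mouse other than Phf21bΔ4/Δ4 replicate 6 was left out. The FDR was then 0.30 without Phf21bΔ4/Δ4 replicate 2, 0.21 without replicate 3, and 0.14, 0.32 and 0.26 without Phf21b+/+ replicates 5, 7 and 8, while the log2 fold change stayed between -3.37 and -2.61 in all 6 fits. With limma-voom on the recovered reads no receptor was called. The Adra2b gene is a single exon on chromosome 2, 127363208 to 127367221 (+, GRCm38), so splicing does not enter its count.

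Adra2a, the alpha-2A receptor that is the main autoreceptor of noradrenergic neurons, was 12.9, 15.0 and 5.22 CPM in Phf21bΔ4/Δ4 mice and 5.65, 6.79 and 7.24 CPM in Phf21b+/+ mice. Replicates 2 and 3 were above every wild-type mouse and replicate 6 was below every one. Over all mice the log2 fold change was 0.62 (95% interval -0.31 to 1.55, limma FDR = 0.35). Without replicate 6 it was 1.09 (SE 0.16) and Adra2a was called (FDR = 0.021). Leaving out any other mouse gave no call (FDR 0.47 to 0.66).

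Adra2c, the alpha-2C receptor, was 25.6, 30.4 and 29.3 CPM in Phf21bΔ4/Δ4 mice and 21.9, 19.7 and 22.1 CPM in Phf21b+/+ mice. Its mice were closely grouped within each genotype, and the lowest mutant exceeded the highest wild-type mouse. Its log2 fold change was 0.42 (SE 0.10, 95% interval 0.18 to 0.66), with a limma FDR of 0.13 and an unadjusted p of 0.0048. Without replicate 6 the log2 fold change was 0.40 and Adra2c was called (FDR = 0.075). Leaving out any other mouse gave no call (FDR 0.16 to 0.36).

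Adrb1, the beta-1 receptor, was 14.0, 18.5 and 11.9 CPM in Phf21bΔ4/Δ4 mice and 12.3, 10.3 and 12.3 CPM in Phf21b+/+ mice. Mutant replicates 2 and 3 were above the wild-type mice and replicate 6 was among them. For Adrb1 the log2 fold change was 0.33 (95% interval -0.10 to 0.76, limma FDR = 0.30).

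**Figure D2:**
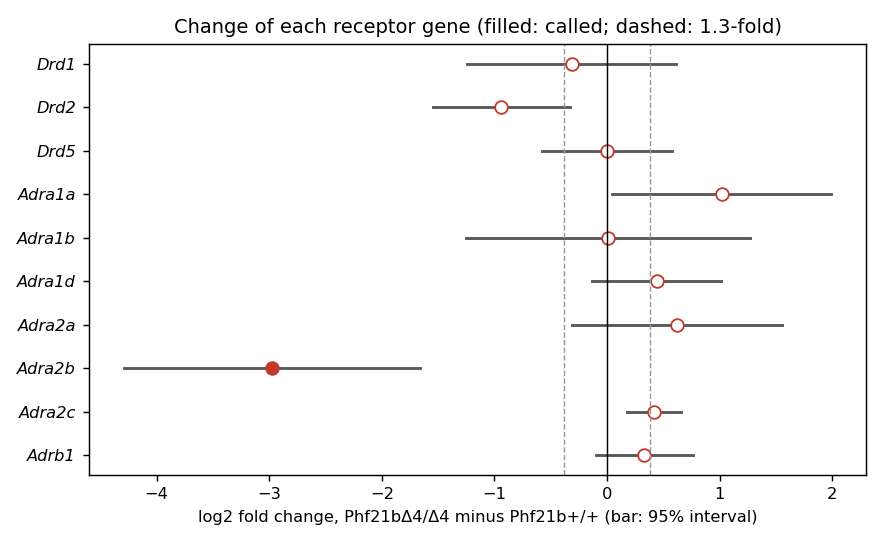
Log2 fold change of each receptor gene between genotypes (limma, Phf21bΔ4/Δ4 minus Phf21b+/+), with its 95% interval and dashed lines at 1.3-fold. The filled point is Adra2b, the 1 receptor called, and the intervals of Drd2, Adra1a, Adra2b and Adra2c do not cross 0.

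Counted over the 10 receptors, 4 (Drd2, Adra1a, Adra2b and Adra2c) had an unadjusted p under 0.05, where 23.6% of all genes did. In 3 of the 10 the genotypes did not overlap (2 lower and 1 higher), where 31.0% of all genes were separated in this way. The median log2 fold change was 0.17 over the receptors and -0.019 over all genes, with 7 receptors above 0 and 3 below.

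Without Phf21bΔ4/Δ4 replicate 6 the number called was 5 of 10 (Drd2, Adra1a, Adra2a, Adra2b and Adra2c), where 19.5% of all genes were called. With mice weighted by limma's arrayWeights it was also 5 (Drd2, Adra1a, Adra1d, Adra2a and Adra2b), where 24.5% of all genes were called, and replicate 6 received the lowest weight of the 6 mice (0.343). The weights changed for all mice at once, so the arrayWeights counts do not belong to replicate 6 alone. Replicates 2 and 3 both lay outside the wild-type range on the same side and replicate 6 did not join them in Adra1a, Adra2a, Drd5 and Adrb1. In Drd2, Adra2b and Adra2c all 3 mutants lay on the same side of the wild-type mice.

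**Figure D3:**
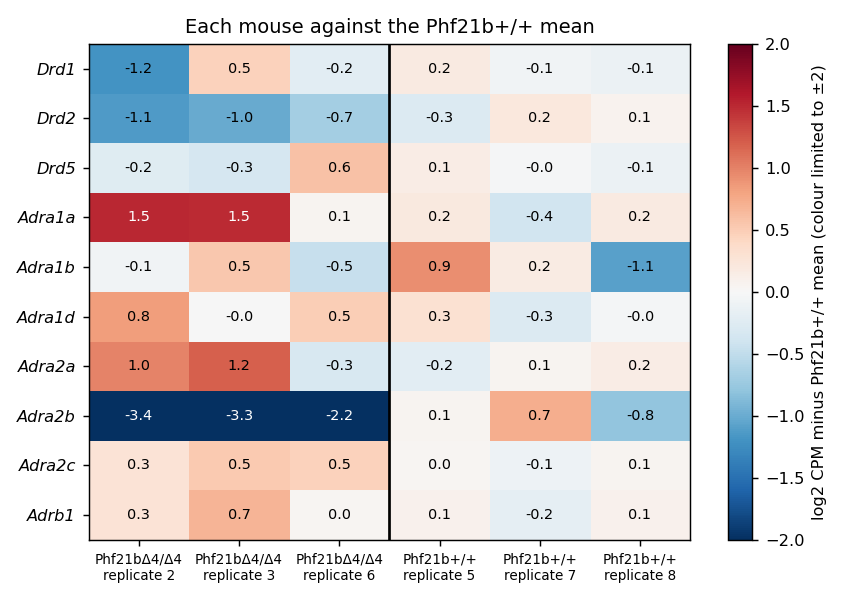
Log2 CPM of each receptor gene in each mouse minus the mean of the 3 Phf21b+/+ mice, with colour limited to 2 in either direction. Phf21bΔ4/Δ4 replicates 2 and 3 are alike in Adra1a and Adra2a and replicate 6 is near or below 0 there, while Adra2b and Drd2 are below 0 in all 3.

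To compare levels between genes, CPM was divided by the exonic length of each gene in kilobases. In Phf21b+/+ mice Adra1d was highest, at 14.0 CPM per kb (range 11.4 to 17.0), followed by Adra2c at 6.16 and Drd5 at 6.03, which overlapped each other. Adrb1 (3.44) and Drd1 (3.07) came next and overlapped each other as well. Adra2a (1.36), Adra1b (1.02), Drd2 (0.914), Adra1a (0.871) and Adra2b (0.507) formed a lower group in which each neighbour in the order overlapped the next.

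In Phf21bΔ4/Δ4 mice the first 6 places held the same genes in the same order, from Adra1d at 19.2 CPM per kb to Adra2a at 2.28. Adra1a (1.91 CPM per kb, range 0.892 to 2.43) stood above Adra1b (0.920), which it overlapped. Drd2 (0.475) and Adra2b (0.0623) were the lowest and did not overlap each other or Adra1b. Adra2b was the lowest of the 10 in both genotypes.

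Summed by coupling, the 4 Gi-coupled genes gave 10.6, 12.4 and 10.3 CPM per kb in Phf21bΔ4/Δ4 mice and 8.75, 8.94 and 9.13 in Phf21b+/+ mice, so the mutants were higher without overlap. Adra2c makes up most of this sum, and Adra2b adds little to it. The 3 Gs-coupled genes overlapped between genotypes, at 13.4 ± 2.48 CPM per kb in Phf21bΔ4/Δ4 and 12.5 ± 1.03 in Phf21b+/+ mice (SD, n = 3). The 3 Gq-coupled genes were 22.0 ± 5.30 and 15.8 ± 3.44 CPM per kb and overlapped too.

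The 7 adrenergic receptor genes together were 42.0, 34.8 and 34.1 CPM per kb in the mutants and 31.3, 24 and 26.6 in the wild-type mice. Every mutant was above every wild-type mouse. The 3 dopamine receptor genes were 6.84, 9.43 and 12.2 against 10.8, 9.87 and 9.34 CPM per kb, and the genotypes overlapped. These sums are descriptions and were not tested.

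The genes whose levels over the 6 mice were most like those of Adra2b were Zic5, Zic2 and Ano1, with a root mean square difference of 0.52, 0.55 and 0.55 in centred log2 CPM among 12966 genes compared. Zic5 and Zic2 are zinc finger transcription factors, and Ano1 is a calcium-activated chloride channel. Ano1 was 2.78, 3.05 and 4.0 CPM in Phf21bΔ4/Δ4 mice and 18.4, 20.3 and 22.1 CPM in Phf21b+/+ mice. All 3 were lower in each mutant than in each wild-type mouse, which follows largely from their choice by likeness over these same mice. Zic5 and Zic2 shared with Adra2b the highest value in Phf21b+/+ replicate 7. The lowest wild-type value was in replicate 5 for all 3 genes and in replicate 8 for Adra2b.

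Marker lists of cells that the sample could hold were read beside the receptors. All 6 libraries carried the hippocampal markers. Markers of the neighbouring medial habenula were higher in sum in every wild-type library, while the sums for the neighbouring thalamus overlapped between genotypes. The medial habenula markers summed to 87.6, 111 and 71.8 CPM in Phf21bΔ4/Δ4 mice and 407, 368 and 560 CPM in Phf21b+/+ mice, with 12 of 13 called lower. Of the defining factors, Irx2 had 9.63, 8.14 and 12.3 CPM in wild-type mice and at most 0.0422 CPM in mutants, and Pou4f1 had 18.3, 12.1 and 20.6 CPM and at most 0.0843 CPM.

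The thalamus markers summed to 214, 359 and 264 CPM in Phf21bΔ4/Δ4 mice and 734, 594 and 352 CPM in Phf21b+/+ mice, with 3 of 11 called lower (Shox2, Tcf7l2 and Amotl1). Shox2, a homeobox factor of the thalamus, was 0.0444 ± 0.00285 CPM in mutants and 6.65 ± 4.83 CPM in wild-type mice. Phf21b+/+ replicate 8, the wild-type mouse with the lowest Adra2b level, also had the lowest thalamus sum of the 3, inside the range of the mutants. Its medial habenula sum was the highest. Single thalamus markers differed from the sum, and 4 of 11, the 3 called among them, were lower in every mutant than in replicate 8. The part of habenula and thalamus cells in the lower Adra2b level was not tested.

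Choroid plexus markers were highest in Phf21b+/+ replicate 7, which also had the highest Adra2b level. Replicate 8 had a larger marker sum than replicate 5 (966 against 19.5 CPM) but a lower Adra2b level (1.08 against 1.95 CPM). The sum of replicate 5 lay inside the range of the mutants (15.2 to 67.4 CPM). Among these markers 1 of 9 was called lower (Otx2), and 2 of 9, Otx2 included, were lower without overlap. Otx2 was 0.548, 0.143 and 0.783 CPM in Phf21bΔ4/Δ4 mice and 6.07, 54.1 and 11.9 CPM in Phf21b+/+ mice, without overlap. Without Phf21b+/+ replicate 7 the log2 fold change of Adra2b was -2.61 and it was not called (limma FDR = 0.32). The call was lost as well without Phf21b+/+ replicate 5 or replicate 8 (limma FDR = 0.14 and 0.26). The part of choroid plexus cells in the lower Adra2b level was not tested.

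For Drd2, markers of 2 candidate carriers were read. The 2 hilar mossy cell markers listed (Calb2 and Calcrl) summed to 74.0, 41.1 and 27.1 CPM in Phf21bΔ4/Δ4 mice and 119, 156 and 113 CPM in Phf21b+/+ mice, without overlap, and none was called (1 with an unadjusted p under 0.05 by limma, 0 called by limma-voom). Calb2, the calcium-binding protein calretinin, was 31.8 ± 19.3 CPM in mutants and 109 ± 23.6 CPM in wild-type mice (limma FDR = 0.13) and is also made by other neurons, thalamic ones included. Calcrl, a receptor component for calcitonin-family peptides, was 21.2, 13.3 and 12.2 CPM in mutants and 18.8, 19.8 and 21 CPM in wild-type mice, with overlap and with its highest value in a mutant (limma FDR = 0.29), so the separation of the sum came from Calb2. The 9 striatal medium spiny neuron markers listed overlapped, at 143 to 213 CPM in mutants and 182 to 223 CPM in wild-type mice, with none called by limma or limma-voom and 1 with an unadjusted p under 0.05. The part of these cells in the lower Drd2 level was not tested.

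Beside the receptors in which replicate 6 stood apart, the dentate granule cell markers were read. They summed to 238 and 241 CPM in Phf21bΔ4/Δ4 replicates 2 and 3, 681 CPM in replicate 6, and 859, 752 and 763 CPM in Phf21b+/+ mice. Of these markers 1 of 8 was called lower (Pdzd2), at 38.8, 48.1 and 48.5 CPM in Phf21bΔ4/Δ4 mice and 70.3, 76.4 and 71.6 CPM in Phf21b+/+ mice, and it did not set replicate 6 apart from replicate 3. Adra1a and Adra2a were high in the 2 mutants in which this sum was low. Other lists also set replicates 2 and 3 apart from replicate 6. The GABAergic interneuron sum was 1090.4 and 1101.1 CPM against 842 CPM, and the endothelial and pericyte sum 348 and 275 CPM against 230 CPM. In these last sums replicate 6 still lay above every wild-type mouse, and single markers differed from the sums. The part of any of these cells in the Adra1a and Adra2a levels was not tested.

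The GABAergic interneuron markers summed to 1090.4, 1101.1 and 842 CPM in Phf21bΔ4/Δ4 mice and 670, 640 and 597 CPM in Phf21b+/+ mice, with 1 of 11 called higher (Gad2, the smaller glutamate decarboxylase). The CA1 pyramidal markers summed to 882, 985 and 931 CPM in the mutants and 374, 380 and 415 CPM in the wild-type mice. Of these, 2 of 7 were called higher (Fibcd1 and Mpped1), and 3 of 7 were higher without overlap. Wfs1 was among those that overlapped, at 37.2, 162 and 210 CPM in mutants and 35.5, 56.2 and 49.9 CPM in wild-type mice. Both sums were higher in every mutant, as Adra2c was. So was the endothelial and pericyte sum, at 348, 275 and 230 CPM in mutants and 223, 187 and 158 CPM in wild-type mice. The part of these cells in the Adra2c level was not tested. Among glial, vascular and other neuronal lists, 1 of 9 astrocyte markers was called lower (Aqp4), and no oligodendrocyte, microglia, endothelial and pericyte, neocortical, or CA2 and CA3 marker was called by limma or limma-voom. Of these last 5 lists, an unadjusted p under 0.05 was found for 0, 1, 5, 2 and 2 markers in that order.

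**Figure D4:**
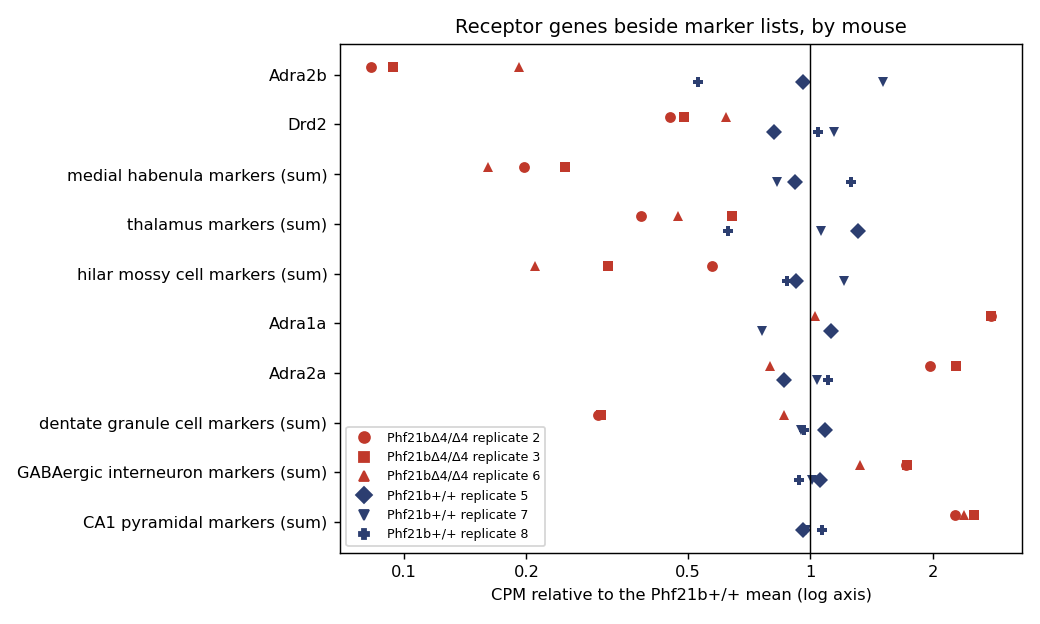
Levels of 4 receptor genes and summed CPM of 6 marker lists in each mouse relative to the mean of the Phf21b+/+ mice (log axis). Adra2b, Drd2 and the medial habenula and mossy cell sums are lower in every Phf21bΔ4/Δ4 mouse, and Adra1a, Adra2a and the dentate granule cell sum separate mutant replicates 2 and 3 from replicate 6.

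Of 17 genes that make, carry or break down catecholamines 12 were listed, and none was called by limma or limma-voom. The estimate was lower in mutants for 11 of the 12 and slightly higher for Spr (log2 fold change 0.05), which acts in cofactor synthesis. An unadjusted p under 0.05 was found for 9, all lower, beside the 23.6% of all genes, and 8 were lower without overlap, beside 31.0% of all genes without overlap in either direction. The median log2 fold change was -0.63. Without Phf21bΔ4/Δ4 replicate 6, 7 of the 12 were called, all lower, beside 19.5% of all genes called in that fit.

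In synthesis, Dbh, the enzyme that makes noradrenaline from dopamine, was counted at 3, 1 and 14 reads in Phf21bΔ4/Δ4 mice and 18, 33 and 25 reads in Phf21b+/+ mice. Every mutant was below every wild-type mouse, with replicates 2 and 3 at or under 3 reads, so the fitted log2 fold change of -2.78 (limma FDR = 0.17) depends on the prior count. Gch1, which makes the first step of the tetrahydrobiopterin cofactor, was 1.11 ± 0.321 CPM in mutants and 2.40 ± 0.194 CPM in wild-type mice (SD, n = 3, log2 fold change -1.15, limma FDR = 0.14). Th, tyrosine hydroxylase, the rate-limiting enzyme, was 18, 34 and 10 reads in the mutants and 33, 42 and 38 reads in the wild-type mice, with overlap. Pnmt, which makes adrenaline, had no entry.

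In transport, Slc18a2, the vesicular monoamine transporter, was 2.88 ± 2.0 CPM in mutants and 6.58 ± 1.96 CPM in wild-type mice (log2 fold change -1.37, limma FDR = 0.18), with overlap. It also serves serotonin and histamine neurons. Slc29a4, a low-affinity monoamine carrier, was 11, 9.29 and 11.8 CPM in Phf21bΔ4/Δ4 mice and 16.6, 38.4 and 17.6 CPM in Phf21b+/+ mice (log2 fold change -1.07, limma FDR = 0.15). The genotypes did not overlap, and the highest value came from replicate 7, the library with the choroid plexus markers.

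In breakdown, Maoa, a monoamine oxidase, was 45.6 ± 4.95 CPM in mutants and 56.2 ± 1.34 CPM in wild-type mice, and Maob, the other one, was 24.4 ± 0.744 and 34.9 ± 10.3 CPM (SD, n = 3). The limma FDRs were 0.16 and 0.21, with lower values in all 3 mutants for both. The highest Maob value, 46.5 CPM, came from Phf21b+/+ replicate 7, against 26.7 and 31.5 CPM in replicates 5 and 8.

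**Figure D5:**
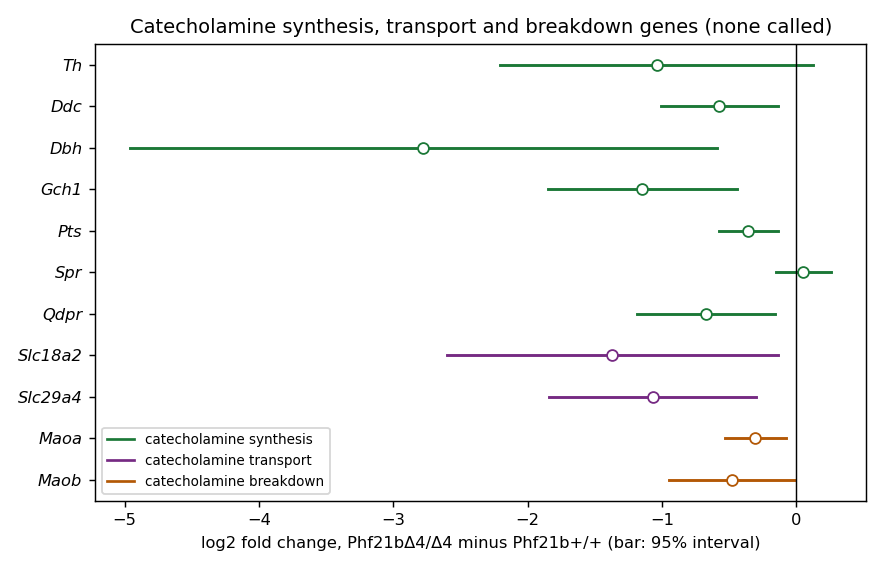
Log2 fold change (limma, Phf21bΔ4/Δ4 minus Phf21b+/+) with its 95% interval for 11 genes of catecholamine synthesis, transport and breakdown, none of which was called. All but Spr have estimates below 0, and the interval of Dbh, a gene of few reads, is the widest.

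Downstream of the receptors, all 50 genes of the signalling lists were listed and none was called by limma or limma-voom, with 20 at an unadjusted p under 0.05 (13 higher and 7 lower), beside 23.6% of all genes. Their median log2 fold change was 0.19. Plcb4, a phospholipase C beta that Gq activates and that is prominent in thalamus, was 36.1 ± 10.2 CPM in mutants and 71.5 ± 17.9 CPM in wild-type mice (SD, n = 3, log2 fold change -0.99, limma FDR = 0.13), without overlap. Adcy3, an adenylyl cyclase, was 86.5 ± 24.6 and 47.1 ± 6.55 CPM (log2 fold change 0.84, limma FDR = 0.14), also without overlap.

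Of the G protein alpha subunits, Gnao1, the main Go protein of neurons, was 394 ± 55.9 CPM in mutants and 285 ± 41.0 CPM in wild-type mice (limma FDR = 0.16) without overlap, and Gna14 overlapped (FDR = 0.32). Grk4, a receptor kinase, was 2.36 ± 0.305 and 3.71 ± 0.443 CPM (FDR = 0.15), lower in every mutant, and Grk3 overlapped (FDR = 0.23). Ppp1r1b, which encodes DARPP-32, the PKA target of dopamine signalling, was 21.6 ± 5.0 and 50.1 ± 33.8 CPM with overlap (FDR = 0.23). Its wild-type values were 24.5, 88.4 and 37.4 CPM, the highest from replicate 7, the library with the choroid plexus markers. Pde4d, a cyclic AMP phosphodiesterase, was 61.6 ± 17.3 and 39.8 ± 4.47 CPM without overlap (FDR = 0.17). Of the receptor partners, the actin cross-linker Flna, which binds D2 receptors, had a log2 fold change of -0.55 and the adaptor Gipc1 one of 0.26, both with an FDR of 0.19. Flna was also highest in wild-type replicate 7, at 99.0 CPM against 55.8 and 72.0 CPM in replicates 5 and 8.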

How the data were processed

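The authors trimmed single-end reads (Trimmomatic 0.39), aligned them to GRCm38 (STAR 2.7.3a), counted them per gene (featureCounts, Subread 1.6.4) and kept genes with at least 1 CPM in at least 2 samples. The deposited values are log2 CPM of 14477 genes in 6 mice. The prior count and strand setting are not given in the sources used here. Whole reads were recovered from the log2 values (100.0% whole within 0.1 read, mean prior 0.10).

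The log2 CPM of all genes were fitted with limma 3.58.1 (trend, R 4.3.3; FDR by Benjamini-Hochberg over all genes; called at FDR under 0.1 and fold above 1.3). The study's own test was run on its own counts, and neither was used here. Reads recovered from the log2 values served for the read numbers and for limma-voom. Exact permutation tests over mice were 2-sided. CPM values are the deposited log2 values taken back to the linear scale, less the lowest value (the prior), before rounding to whole reads. Lengths come from GENCODE M21 for GRCm38 and promoter windows from RefSeq.

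The receptors, gene lists and alternatives were chosen with earlier results of these data known. Named were the receptors, Phf21b, and from each pathway list the genes called or, with none called, those 2 with the largest log2 change. From marker lists, called genes with the largest changes (up to 4) and the 2 highest in level could be named. Also named were the 3 genes nearest in pattern to Adra2b. Th, Spr and the marker pair for mossy cells were named after their values were seen. Wfs1 was named outside this rule as well. A pair of listed genes that the rule covers is not reported here. The labels number mice but give no source culture or litter, so p-values measure the spread between these 6 libraries. The limma step was tested on simulated data. Alternatives changed the variance prior, weights, filter (mean log2 CPM of at least 1), pseudocount, centring, test (limma-voom on recovered reads) and thresholds, and left out each mouse.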

Additional observations from a re-analysis of the deposited data

How the results depend on the processing

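No paired analysis was possible because litter and pairing are not given for these 6 mice. The number of receptors called (1) fell to 0 with the same prior variance for all genes, with genes of mean log2 CPM under 1 removed (which removes Adra2b and Drd2 from the genes tested), with log2(CPM + 1), with quantile normalization, with limma-voom and at an FDR under 0.05, rose to 5 with arrayWeights, and ran from 0 to 5 without any 1 mouse. The number over all genes (176) was 75 with the same prior variance, 3549 with arrayWeights, 101 with the filter, 25 at an FDR under 0.05, and 9 to 2830 without any 1 mouse. The catecholamine genes called (0) became 8 with arrayWeights and 0 to 7 without any 1 mouse. The signalling genes called (0) became 18 with arrayWeights, 1 with quantile normalization (Gnal) and 0 to 15 without any 1 mouse. The upper end of each of these ranges is the fit without Phf21bΔ4/Δ4 replicate 6, and the cause was not tested. The log2 fold change of Adra2b kept its sign in all 13 alternatives that gave a value (-3.37 to -1.23) and was called in 4 of them. Drd2 kept its sign in 13 of 13, and Adra1a, Adra1d, Adra2a, Adra2c and Adrb1 in 14 of 14. Drd1, Drd5 and Adra1b did not. The depth limits Adra2b most, since the mutants hold 4 to 9 reads of it.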
